A study of Mus musculus with 30 samples.

Results

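Chemokines are small secreted proteins that direct cell movement through receptors on the cells that follow them. The genes described here are Ccl2, Ccl5, Ccl7, Ccl8, Ccl11, Ccl17 and Ccl20 of the CC family, together with Cxcl12, Cxcl14 and Cxcl16 of the CXC family. They were taken by gene symbol from the count files, which held each of the 10 symbols once among 55487 genes. CCL2 and CCL7 draw monocytes through the receptor CCR2, and CCL5 and CCL7 bind CCR1 among others. CCL11 draws eosinophils through CCR3, CCL17 draws T helper 2 cells through CCR4, and CCL20 draws dendritic cells and T helper 17 cells through CCR6. CXCL12 is a product of stromal cells that retains CXCR4-bearing cells, and it is also bound by the scavenger receptor ACKR3. CXCL16 is made as a transmembrane protein that the protease ADAM10 can shed, and its receptor is CXCR6.

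The genes were followed in lung organoid cultures in which 300000 Epcam+ cells from adult wild-type C57BL/6J mice were embedded in Matrigel with as many CCL206 cells. CCL206 is a single mouse lung fibroblast line, and its proliferation had been stopped with mitomycin C. The Epcam+ cells had been depleted of CD31+ and CD45+ cells, a step meant to take away endothelial cells and leukocytes. The cultures received for 72 hours vehicle, a COPD exacerbation cocktail (EC: TNFα, IL-1β, IL-6 and IL-8 by the labels), a cocktail of 9 factors modelled on idiopathic pulmonary fibrosis (IPFc) or TGF-β at 2 ng/ml. By the study's methods, the EC given to mouse cells held KC, a mouse chemokine, where human cells got IL-8. By the labels IPFc held TNFα, IL-1β and IL-8, and besides them TGF-β, the type 2 cytokines IL-4 and IL-13, the alarmins IL-33 and TSLP, and the chemokine CCL2. The added CCL2 is a protein and adds no reads to the Ccl2 gene. The cells were then re-sorted with Epcam microbeads into an epithelial (Epcam+) and a fibroblast (Epcam-) fraction, giving 8 groups and 30 libraries. Every group had 4 libraries, 1 for each of 4 mice, except fibroblast vehicle (without mouse 2) and epithelial TGF-β (without mouse 1) with 3 each, whose missing libraries are not analysed here. The fibroblasts of all cultures came from the same line, so the mouse number of a fibroblast library names the culture it came from.

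Between 5113828 and 20317181 reads were counted per library, and the fibroblast EC library of mouse 1 was the shallowest. Levels are given as CPM, the count divided by the library's total and scaled to 1000000 reads. Where a library held no read, 3 reads are taken as the limit that counting error allows. Neither fraction was free of marker RNA of the other cell type. Whether the fraction's own cells made some of that RNA was not tested. Marker genes of fibroblasts put the share of fibroblast RNA in epithelial libraries at 5.97 ± 2.45% (SD, n = 4) for vehicle, 11.6 ± 4.88% (n = 4) for EC, 11.3 ± 5.34% (n = 4) for IPFc and 28.7 ± 2.68% (n = 3) for TGF-β. Epithelial markers put the share of epithelial RNA in fibroblast libraries at 22.9 ± 7.08% (n = 3), 46.9 ± 9.60% (n = 4), 21.0 ± 8.10% (n = 4) and 2.25 ± 1.28% (n = 4) in the same order. The SD is the spread between libraries, and single markers disagreed more. Their quartiles were 15.5 and 66.8% in fibroblast vehicle mouse 1, 31.9 and 104.7% in EC mouse 2, and 0.77 and 2.42% in TGF-β mouse 3. Subtraction takes the median over markers as exact, so tests after it leave out this spread. These shares moved with treatment, and levels or tests after subtraction of the share times the partner library are given beside the results they touch. In bulk RNA, fewer cells of a type and less RNA per cell cannot be told apart. All 18 epithelial markers had a mean of at least 1 CPM in each epithelial group, and 18 or 19 of 20 fibroblast markers did so in each fibroblast group. This count does not tell the fractions apart. All 18 epithelial markers also reached it in fibroblast vehicle, EC and IPFc groups and 16 with TGF-β, and 16 to 18 fibroblast markers did in epithelial groups. Thy1, a common fibroblast marker, was without a read in fibroblast vehicle, EC and TGF-β libraries. Of 22 leukocyte markers, Cd14 was read at 118 to 473 CPM in epithelial and 7.42 to 189 CPM in fibroblast libraries. The other leukocyte markers together summed to 6.76 to 20.9 CPM per library, with Ptprc, the gene of CD45, at 1.10 CPM or less and Cd3g and Nkg7 at 0 in all. Some libraries carry a suffix R in their labels whose meaning is not given, and within a mouse it varied only in mouse 3.

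On the mouse genome (GRCm39, GENCODE), 4 of the genes lie in 1 cluster on chromosome 11, all on the plus strand: Ccl2 (chr11:81926397-81928279), Ccl7 (chr11:81936532-81938351), Ccl11 (chr11:81948618-81953781) and Ccl8 (chr11:82006007-82007625), within 81.2 kb. Ccl5 (chr11:83416602-83425942) and Cxcl16 (chr11:70344517-70352620) lie elsewhere on chromosome 11 on the minus strand. Ccl17 is at chr8:95534358-95538664, Ccl20 at chr1:83094487-83096888 and Cxcl12 at chr6:117144945-117158328, all on the plus strand, and Cxcl14 is at chr13:56436352-56444603 on the minus strand. The exons of Cxcl16 share 2213 bases with Med11 and 2132 bases with Zmynd15, both on the opposite strand. The libraries were made with a kit that keeps the strand, but the counting program and its strand setting are not given in the sources used here, so Cxcl16 counts may hold reads of these neighbours.

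Ccl20, Cxcl12 and Ccl8, which differed in their responses, are shown by the 250 bases before their start, 5′ to 3′, from RefSeq windows on GRCm38.p6, another build than the gene positions above. Ccl20 was higher with EC, Cxcl12 was lower in fibroblast libraries with EC and IPFc, and Ccl8 was higher with IPFc. Windows of this kind were at hand for 5 of the 10 genes (Ccl8, Ccl17, Ccl20, Cxcl12 and Cxcl14). Capitals mark matches on either strand to GGG and CC set apart by 5 bases of any kind, a loose form of the site bound by NF-κB. Searched as well were TTC and GAA set apart by 4 bases of any kind, a form of the STAT6 site, and TGANTCA, a form of the AP-1 site. The windows are Ccl20 (chr1:83116516-83116765, plus strand), Cxcl12 (chr6:117168285-117168534, plus strand) and Ccl8 (chr11:82114935-82115184, plus strand).
Ccl20: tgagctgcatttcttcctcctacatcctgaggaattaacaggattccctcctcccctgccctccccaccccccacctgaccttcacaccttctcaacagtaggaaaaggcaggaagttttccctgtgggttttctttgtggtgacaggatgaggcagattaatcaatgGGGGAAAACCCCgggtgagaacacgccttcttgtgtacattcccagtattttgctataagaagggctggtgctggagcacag
Cxcl12: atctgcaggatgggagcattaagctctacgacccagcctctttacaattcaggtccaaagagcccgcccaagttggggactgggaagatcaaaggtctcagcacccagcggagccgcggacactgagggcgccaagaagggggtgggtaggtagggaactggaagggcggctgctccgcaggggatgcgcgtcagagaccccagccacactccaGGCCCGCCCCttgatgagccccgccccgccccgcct
Ccl8: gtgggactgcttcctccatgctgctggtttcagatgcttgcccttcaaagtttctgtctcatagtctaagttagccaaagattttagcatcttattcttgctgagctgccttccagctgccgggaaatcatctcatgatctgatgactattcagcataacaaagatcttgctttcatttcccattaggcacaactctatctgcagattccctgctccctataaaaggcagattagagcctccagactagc
The capitals of Ccl20 are 3 overlapping matches to the NF-κB form between 82 and 71 bases before the start. Cxcl12 had 1 such match, 36 to 27 bases before its start, and Ccl8 had none of any kind. Ccl17 had 1 match to the STAT6 form, 154 to 145 bases before its start. Of all 32817 windows of the table, 45.8% held the NF-κB form, 5.85% the STAT6 form and 6.75% TGANTCA, so a match to the first is common and describes letters only.

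The genes fell into those read mainly in fibroblast libraries, those read mainly in epithelial libraries and those read in neither beyond a few reads. Ccl2, Ccl7, Ccl8 and Cxcl12 were fibroblast genes and Ccl20 and Cxcl16 epithelial genes in the vehicle control. Differences between the fractions were tested with edgeR's quasi-likelihood test over all 30 libraries with the culture as a block, two-sided, with Benjamini-Hochberg adjustment over all genes tested, and a gene was called where the adjusted p was under 0.05. Under vehicle, 6 of the 9 genes tested were called, against 47.1% of all genes, 2 of them higher in epithelial libraries (23.5% of all genes) and 4 lower (23.6%). Cxcl14 was too low for any test. The difference, epithelial minus fibroblast, was -4.15 ± 0.32 (log2 fold change ± SE) for Ccl2 (adjusted p = 6.05e-08), -4.32 ± 0.41 for Ccl7 (3.03e-07), -5.03 ± 0.56 for Ccl8 (1.44e-06) and -4.15 ± 0.31 for Cxcl12 (5.11e-08), each lower in the epithelial library of 3 of 3 cultures. It was 1.68 ± 0.32 for Ccl20 (adjusted p = 0.000288) and 2.11 ± 0.25 for Cxcl16 (2.15e-06), each higher in the epithelial library of 3 of 3 cultures. After subtraction of the other fraction's share Ccl20 was no longer called (adjusted p = 0.0968).

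Set per kilobase of exon, which allows genes to be compared, Ccl2 stood first in fibroblast vehicle libraries at 293 ± 155 CPM per kb (SD, n = 3), before Cxcl12 at 87.2 ± 13.1, Ccl7 at 63.1 ± 18.4 and Ccl8 at 27.9 ± 11.4. The ranges of Cxcl12 (73.8 to 100) and Ccl7 (47.4 to 83.4) overlapped, whereas those of Ccl2 and Cxcl12, and of Ccl7 and Ccl8, did not. The exon length is the union over all annotated transcripts, 8346 bases for Cxcl12 and 1138 for Ccl2, so a gene with long alternative ends is placed low. In epithelial vehicle libraries Cxcl16 stood first at 26.0 ± 1.74 CPM per kb (n = 4), followed by Ccl2 at 14.0 ± 8.26 and Ccl20 at 8.73 ± 3.56, and the ranges of Ccl2 and Ccl20 overlapped each other and that of Ccl2 also reached that of Cxcl16. These ranks are as deposited. Subtraction of the fibroblast share took Ccl2 from 15.9 to 1.23 ± 2.46 CPM there and left Ccl20 at 12.9 ± 5.15 CPM.

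**Figure D1:**
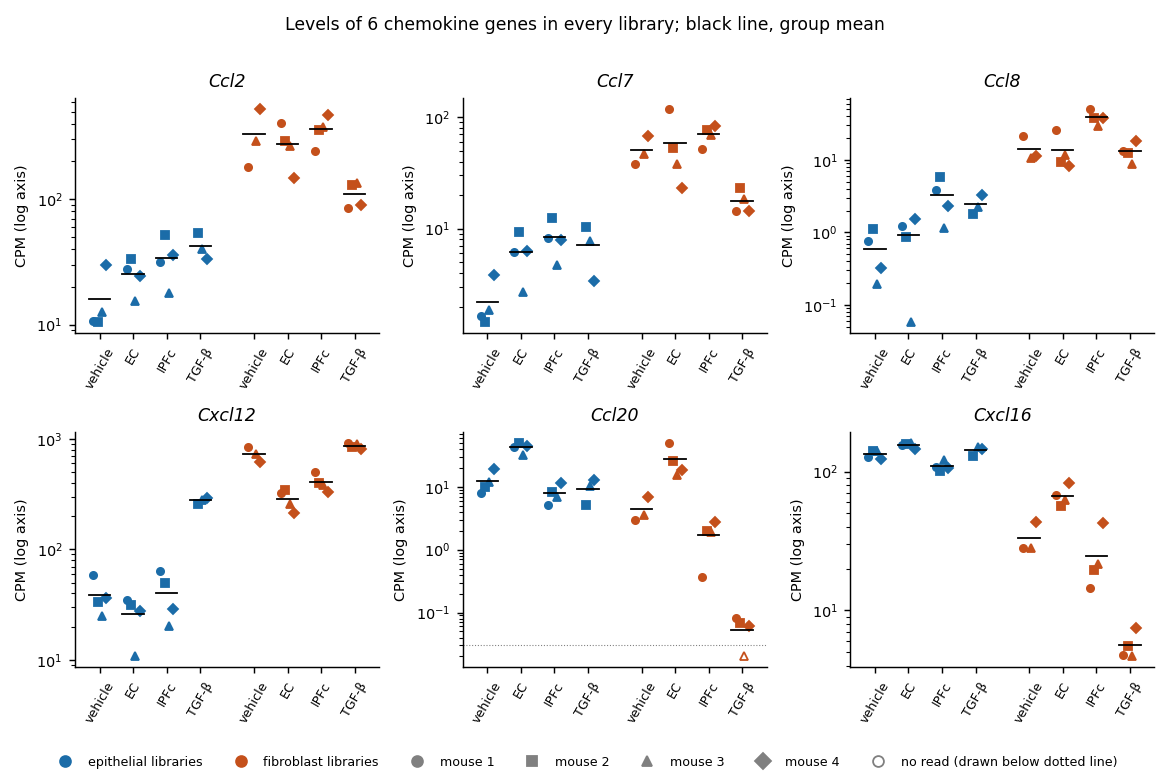
CPM (log axis) of the 6 abundant genes in each of the 30 libraries, epithelial in blue and fibroblast in orange, by treatment and mouse, with the group mean as a black line. Ccl2, Ccl7, Ccl8 and Cxcl12 lie higher in fibroblast and Cxcl16 higher in epithelial libraries, and Ccl20 lies highest with EC in both fractions and at 0.0812 CPM or less in fibroblast TGF-β libraries.

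Under the other treatments the same 6 genes were called in the same direction, with 7 of 9 called in each of EC (41.9% of all genes called), IPFc (52.2%) and TGF-β (39.8%). In each, Ccl20 and Cxcl16 were higher in epithelial libraries, against 20.3, 26.3 and 21.7% of all genes, and 5 were lower, against 21.6, 25.9 and 18.1%. The fifth lower gene was Ccl17 with EC, Ccl5 with IPFc and Ccl11 with TGF-β, each from few reads and each lost in 3 to 5 alternatives. Ccl20 with EC was the weakest of the shared calls. Its difference was 0.84 ± 0.25 (adjusted p = 0.0131), with 3 of 4 cultures higher in the epithelial library and overlapping groups, and it was lost in 5 of 11 alternatives: without mouse 2, 3 or 4 (adjusted p = 0.0949, 0.127 and 0.104), without the block (0.0984) and after subtraction (0.0886). The size of the gap differed with treatment. For Cxcl12 it was -3.46 ± 0.26 with EC, -3.35 ± 0.26 with IPFc and -1.71 ± 0.28 with TGF-β. For Cxcl16 it was 1.29 ± 0.21 with EC, 2.35 ± 0.22 with IPFc and 4.52 ± 0.28 with TGF-β. After subtraction of the other fraction's share, 3 genes remained called with TGF-β, and the calls of Ccl2 (adjusted p = 0.107), Ccl7 (0.137), Ccl11 (0.12) and Cxcl12 (0.0969) were lost there.

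How the level in the lower fraction compared with that share could be read culture by culture, over 14 cultures with both fractions. Epithelial Cxcl12, as a percentage of Cxcl12 in the fibroblast library of its culture, had a median of 5.86% with vehicle, 10% with EC, 10.5% with IPFc and 31% with TGF-β, beside fibroblast marker shares with medians of 4.78, 11.9, 12.3 and 29.1%. It lay above the share in 6 of 14 cultures, and Ccl2 did so in 7 of 14, Ccl7 in 9 and Ccl8 in 2. Fibroblast Cxcl16, as a percentage of epithelial Cxcl16, had medians of 22.2, 41.2, 18.6 and 4.22% in the same order, beside epithelial marker shares of 20, 43, 19.5 and 3.17%. It lay above the share in 9 of 14 cultures, among them 0 of 4 with EC. Both quantities of each pair come from the same libraries.

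**Figure D2:**
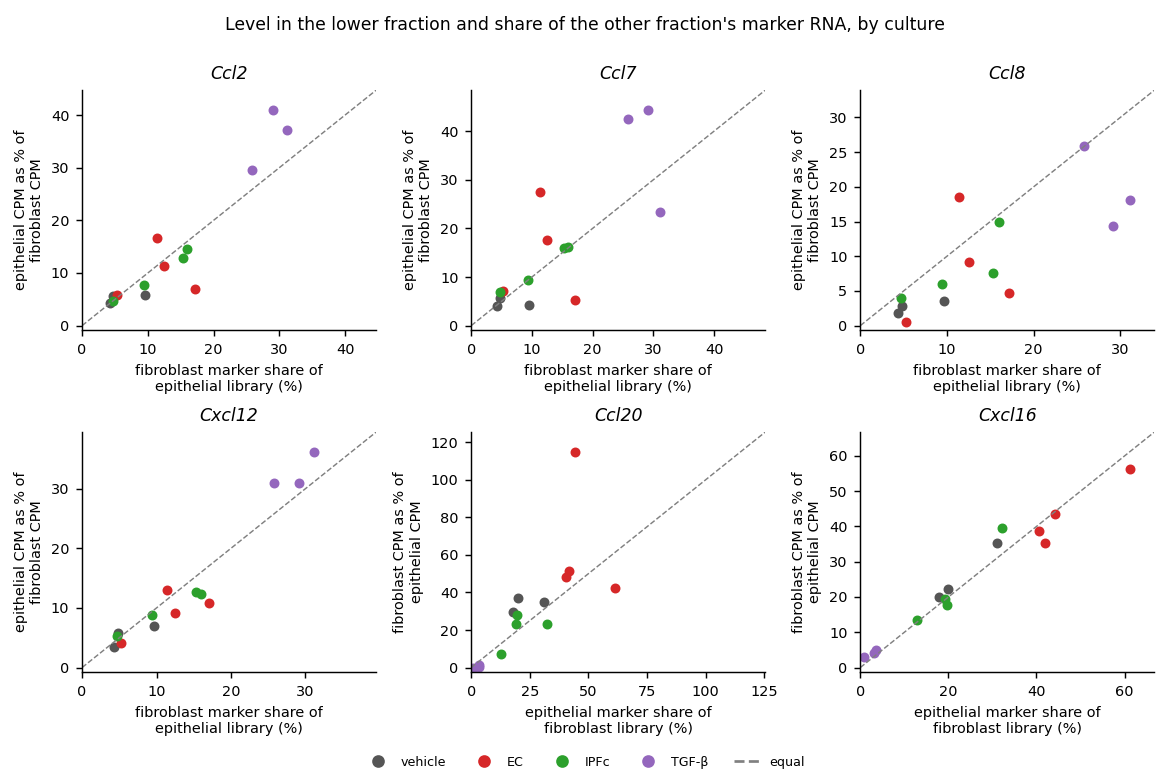
Each point is 1 culture, with the level of a gene in its lower fraction as a percentage of the level in the partner library (vertical axis) against the percentage of marker RNA of the partner cell type (horizontal axis), and the dashed line marks equal percentages. Ccl2, Ccl7 and Cxcl12 points scatter on both sides of the line with TGF-β cultures farthest out, Ccl7 in EC mouse 4 stands well above it (27.4% beside a share of 11.4%) and Ccl7 in EC mouse 1 well below it (5.22% beside 17.1%), Cxcl16 points follow it from 3.11 to 56.2%, and the Ccl20 point of EC mouse 1 stands off it at 115%.

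Treatments were compared within a fraction, in 1 model for its 15 libraries with the mouse as a block. In epithelial libraries, EC against vehicle called 2 of 9 genes (4.41% of all genes called), both higher (1.96%). IPFc called 4 (4.10%), of which 3 were higher (2.57%) and 1 lower (1.53%), and TGF-β called 6 (41.1%), of which 5 were higher (21.0%) and 1 lower (20.1%). The median log2 fold change of the 9 genes was 0.69 with EC, 0.67 with IPFc and 1.59 with TGF-β, and that of all genes tested was 0.003, 0.006 and 0.03. In fibroblast libraries, EC called 3 (7.11%), of which 2 were higher (4.28%) and 1 lower (2.84%). IPFc called 2 (0.449%), of which 1 was higher (0.305%) and 1 lower (0.144%), and TGF-β called 6 (19.2%), of which 2 were higher (6.39%) and 4 lower (12.8%). The medians were 0.02, 0.30 and 0.01, beside -0.02, -0.003 and -0.02 for all genes tested. Set against EC, IPFc called 3 genes in epithelial libraries (4.17%), 1 higher (2.40%) and 2 lower (1.76%), and 5 in fibroblast libraries (10.4%), 3 higher (4.16%) and 2 lower (6.28%). Set against TGF-β, IPFc called 3 in epithelial libraries (37.2%), all lower (18.7%), and 7 in fibroblast libraries (17.4%), 5 higher (12.1%) and 2 lower (5.33%). The TGF-β counts stand against a background in which a large part of all genes moved. The comparisons with vehicle share their vehicle libraries.

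**Figure D3:**
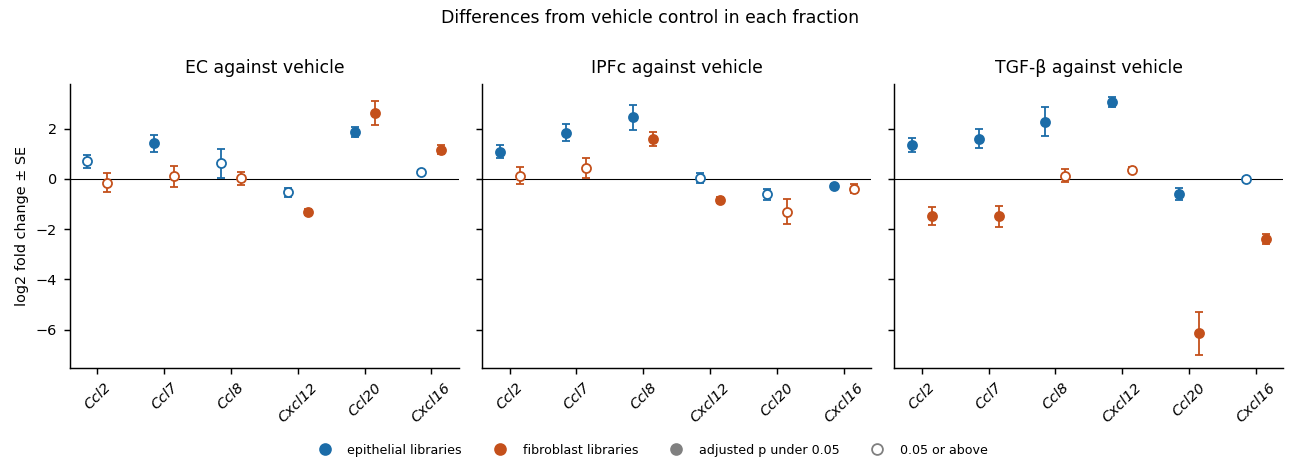
Log2 fold change against vehicle with its SE for the 6 abundant genes, in epithelial (blue) and fibroblast (orange) libraries, filled where the adjusted p was under 0.05. With TGF-β, Ccl2 and Ccl7 lie above 0 in epithelial and below 0 in fibroblast libraries, and Ccl20 in fibroblast libraries lies lowest at -6.15.

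Ccl20, the ligand of CCR6, was the member with the clearest response to EC. In epithelial libraries its levels were 8.12, 9.85, 12.1 and 19.6 CPM with vehicle and 43.2, 50.4, 31.8 and 44.3 CPM with EC (mice 1 to 4). The lowest EC library lay above the highest vehicle library, and every mouse was higher with EC. The log2 fold change was 1.88 ± 0.20 (adjusted p = 2.69e-06), and the call held under all 12 alternatives, with adjusted p between 1.11e-36 and 0.00112. Subtraction of the fibroblast share left 12.9 ± 5.15 CPM with vehicle and 43.9 ± 8.98 CPM with EC (SD, n = 4), a log2 fold change of 1.87 ± 0.23 (adjusted p = 0.000442).

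IPFc, which shares TNFα and IL-1β with EC, left epithelial Ccl20 near its vehicle level. Its levels were 5.11, 8.40, 6.85 and 11.6 CPM, lower than vehicle in 4 of 4 mice, by a log2 difference of -0.62 ± 0.21 that missed the threshold (adjusted p = 0.125). It was called where only the 2 groups were fitted (-0.63, adjusted p = 0.0105) and without the filter on low counts (-0.62, adjusted p = 0.00186). Set directly against EC, IPFc libraries were lower by 2.50 on the log2 scale (SE 0.21, adjusted p = 4.13e-08), in 4 of 4 mice and under all 12 alternatives. With TGF-β the levels were 5.21, 10.2 and 12.8 CPM in mice 2, 3 and 4, overlapping with vehicle. The log2 fold change was -0.62 ± 0.23 (adjusted p = 0.04), a call lost after subtraction (-0.20, adjusted p = 0.614), without mouse 2 (0.17) or mouse 4 (0.0775), without the block and with robust estimation.

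In fibroblast libraries Ccl20 was at 2.99, 3.56 and 6.86 CPM with vehicle (mice 1, 3 and 4) and at 49.7, 26.0, 15.3 and 18.8 CPM with EC. The groups did not overlap and the log2 fold change was 2.63 ± 0.47 (adjusted p = 0.00283). As a percentage of epithelial Ccl20 of the same culture these EC levels were 115, 51.5, 48.1 and 42.4%, beside epithelial marker shares of 44.1, 41.9, 40.6 and 61.2%. Only in mouse 1, the shallowest library, did fibroblast Ccl20 exceed the epithelial level. After subtraction the EC libraries ranged from 0 to 52.2 CPM and the call was lost (adjusted p = 0.92), as it was without mouse 3 (adjusted p = 0.0502).

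With TGF-β, fibroblast libraries held 3 Ccl20 reads in all, at 0.0812, 0.0687, 0 and 0.0600 CPM. The library without a read, of mouse 3, allows no more than its floor of 0.184 CPM. Vehicle libraries held 191 reads, a ratio of summed counts of 92.4 (95% exact interval 31.1 to 452, counting error only). The test called the fall (-6.15 ± 0.86, adjusted p = 4.18e-05), and 11 of 12 alternatives kept the call. The share of epithelial RNA was 2.25 ± 1.28% in these libraries and 22.9 ± 7.08% in the vehicle libraries, and after subtraction the levels were 0 with TGF-β and 1.49 ± 0.33 CPM with vehicle (n = 3). There the call was lost (-7.66 ± 2.58, adjusted p = 0.202). IPFc libraries ranged from 0.367 to 2.71 CPM, all below vehicle, and the log2 difference of -1.31 ± 0.50 was not called (adjusted p = 0.554). It was called where only the 2 groups were fitted (-1.49, adjusted p = 0.00459), without the filter on low counts (-1.30, 0.000348) and without mouse 1 (-1.30, 0.0303).

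Cxcl12, the ligand of CXCR4, was lower in fibroblast libraries with both cocktails. Its levels were 835, 732 and 616 CPM with vehicle (mice 1, 3 and 4), 322, 346, 259 and 213 CPM with EC, and 503, 401, 379.9 and 332 CPM with IPFc (mice 1 to 4). Neither cocktail group reached the lowest vehicle library. EC libraries fell by 1.32 on the log2 scale (SE 0.13, adjusted p = 1.87e-05), in 3 of 3 mice and under all 12 alternatives. IPFc libraries fell by 0.84 (SE 0.13, adjusted p = 0.00441), in 3 of 3 mice, and this call was lost in 4 of 12 alternatives, among them without mouse 3 (adjusted p = 0.134) and without mouse 4 (adjusted p = 0.161).

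The share of epithelial RNA, which dilutes a fibroblast gene, was 46.9% with EC and 21.0% with IPFc, beside 22.9% with vehicle. After subtraction fibroblast Cxcl12 stood at 925 ± 85.1 CPM with vehicle (SD, n = 3), 496 ± 58.9 with EC and 496 ± 47.5 with IPFc (n = 4 each). The EC libraries (425 to 563 CPM) and the IPFc libraries (465 to 567 CPM) remained below the lowest vehicle library (870.9 CPM). The subtracted log2 fold changes were -0.89 ± 0.12 for EC (adjusted p = 0.0197) and -0.87 ± 0.12 for IPFc, the latter no longer called (adjusted p = 0.081). As deposited, IPFc libraries were higher than EC libraries by 0.48 ± 0.12 (adjusted p = 0.0147) in 4 of 4 mice, and this call was lost after subtraction (adjusted p = 0.98), without mouse 3 (0.103) or mouse 4 (0.118) and in 2 other alternatives.

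TGF-β left fibroblast Cxcl12 at 921, 837, 906 and 803 CPM, which overlapped with vehicle. The log2 fold change was 0.36 ± 0.13 (adjusted p = 0.0622), higher in 3 of 3 mice, and 2 alternatives called it, DESeq2 (0.37, adjusted p = 0.0227) and the fit without mouse 1 (0.39, adjusted p = 0.0235). After subtraction the levels were 879.8 ± 50.1 CPM (n = 4), below the mean of vehicle. IPFc libraries were lower than TGF-β libraries by 1.20 on the log2 scale (SE 0.12, adjusted p = 7.42e-07), in 4 of 4 mice and under all 12 alternatives.

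In epithelial libraries Cxcl12 was at 58.5, 33.3, 25.2 and 36.1 CPM with vehicle and at 259, 281 and 291 CPM with TGF-β (mice 2, 3 and 4). The groups lay far apart, the log2 fold change was 3.06 ± 0.20 (adjusted p = 1.95e-10), and all 12 alternatives kept the call. The share of fibroblast RNA was higher as well, at a mean of 28.7% beside 5.97%. Epithelial Cxcl12 was 30.9, 31.0 and 36.2% of the fibroblast level in mice 2, 3 and 4, beside fibroblast shares of 29.1, 25.8 and 31.1%. Quartiles over the markers behind these shares ran from 24.0 to 31.9, 24.0 to 35.3 and 28.3 to 41.3%. Each Cxcl12 percentage lay within them. Subtraction took the TGF-β libraries to 47.7 ± 22.2 CPM (n = 3) and the vehicle libraries to 1.76 ± 3.51 CPM (n = 4, with 3 libraries at 0). The difference stayed called (adjusted p = 0.0167), but that test takes the share as exact and cannot tell it from the spread of the markers. EC (10.8 to 35.2 CPM) and IPFc (20.2 to 63.2 CPM) were not called against vehicle in epithelial libraries (adjusted p = 0.132 and 0.978). The EC difference was -0.54 ± 0.19, higher than vehicle in 0 of 4 mice. It was called without the filter on low counts (-0.55, adjusted p = 6.57e-05) and where only the 2 groups were fitted (-0.57, adjusted p = 0.0333). Subtraction left 0.999 ± 2.00 CPM with EC.

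**Figure D4:**
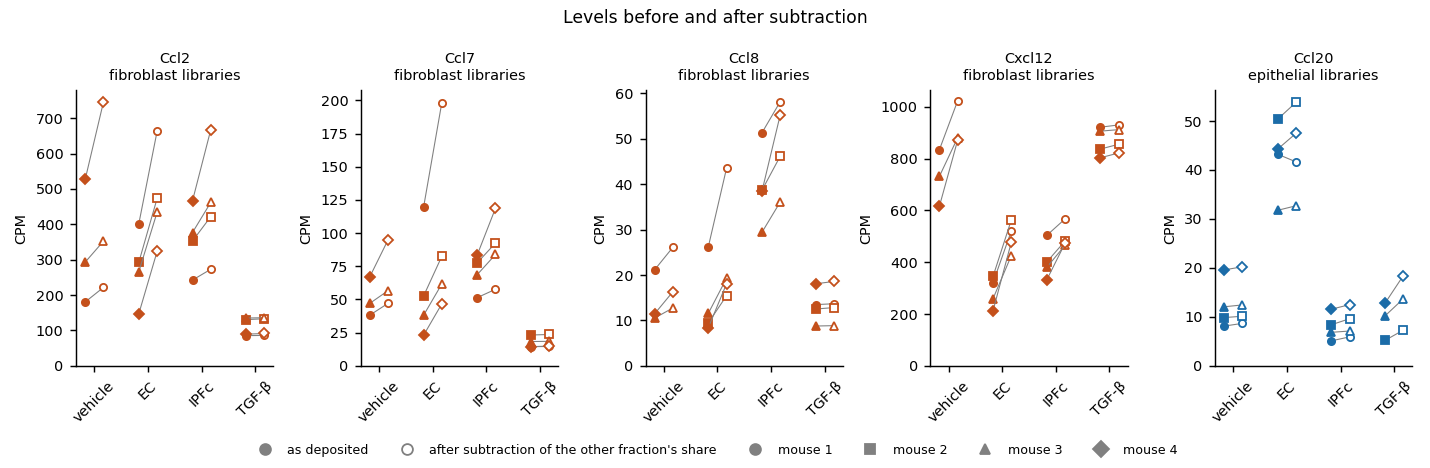
CPM by treatment of 4 genes in fibroblast libraries and of Ccl20 in epithelial libraries, as deposited (filled) and after subtraction of the other fraction's share (open), with a line joining the values of 1 library. Cxcl12 with EC and IPFc stays below the vehicle libraries after subtraction, Ccl8 with IPFc stays above them, and Ccl20 with EC stays above all other epithelial groups.

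Ccl8, of the chromosome 11 cluster, rose with IPFc in fibroblast libraries. Its levels there were 21.2, 10.5 and 11.5 CPM with vehicle (mice 1, 3 and 4) and 51.3, 38.7, 29.4 and 38.4 CPM with IPFc (mice 1 to 4). The groups did not overlap, and the log2 fold change was 1.59 ± 0.26 (adjusted p = 0.00853), higher in 3 of 3 mice. With a similar size this call was lost without mouse 3 or mouse 4, without the block and after subtraction (1.57 ± 0.31, adjusted p = 0.303), where 48.9 ± 9.97 CPM with IPFc stood against 18.4 ± 6.92 with vehicle. EC libraries (8.40 to 26.2 CPM) and TGF-β libraries (8.76 to 18.1 CPM) overlapped with vehicle (adjusted p = 0.983 and 0.826). IPFc was higher than EC by 1.57 ± 0.24 (adjusted p = 0.000517) and higher than TGF-β by 1.47 ± 0.23 (adjusted p = 0.000173), each in 4 of 4 mice. The comparison with TGF-β held under all 12 alternatives, and that with EC was lost after subtraction (1.10 ± 0.27, adjusted p = 0.314), where EC libraries stood at 24.1 ± 13.1 CPM and the epithelial share was 46.9% with EC and 21.0% with IPFc.

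In epithelial libraries Ccl8 was read at 0.751, 1.12, 0.197 and 0.323 CPM with vehicle and at 3.91, 5.77, 1.16 and 2.33 CPM with IPFc. All IPFc libraries lay above all vehicle libraries, and the log2 fold change was 2.44 ± 0.51 (adjusted p = 0.00595, and 0.0559 without the block). TGF-β libraries held 1.81, 2.27 and 3.26 CPM (mice 2, 3 and 4), a log2 fold change of 2.28 ± 0.57 (adjusted p = 0.00296). Relative to the fibroblast library of the same culture these levels were at most 25.9%, and they exceeded the fibroblast share in 0 of 4 IPFc and 1 of 3 TGF-β cultures. Subtraction left 0 CPM in all IPFc and TGF-β epithelial libraries.

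Ccl2 and Ccl7, the monocyte chemokines at the start of the cluster, behaved alike. Fibroblast Ccl2 was at 180.5, 293 and 527 CPM with vehicle (mice 1, 3 and 4) and at 85.4, 131, 135 and 89.5 CPM with TGF-β, without overlap. It fell by 1.48 on the log2 scale (SE 0.36, adjusted p = 0.00605) in 3 of 3 mice, and after subtraction the log2 fold change was -1.82 ± 0.45 (adjusted p = 0.0499). Fibroblast Ccl7 was at 38.2, 47.1 and 67.3 CPM with vehicle and at 14.5, 23.2, 18.3 and 14.5 CPM with TGF-β, again without overlap. It fell by 1.49 (SE 0.41, adjusted p = 0.0157) in 3 of 3 mice. Without mouse 4, whose vehicle library was the highest for both genes, the calls were lost (Ccl2 -0.90, adjusted p = 0.0595, Ccl7 adjusted p = 0.131), and that of Ccl7 was lost without mouse 3 and after subtraction too (adjusted p = 0.0929 for the latter).

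Fibroblast Ccl2 and Ccl7 were not called with either cocktail. With EC, Ccl2 was at 402, 293, 266 and 148 CPM and Ccl7 at 120, 52.6, 38.1 and 23.0 CPM, both highest in mouse 1 and lowest in mouse 4, the opposite of the vehicle libraries. The log2 fold changes were -0.15 ± 0.36 and 0.11 ± 0.42 (adjusted p = 0.851 and 0.913). Without mouse 1, the shallowest EC library, both were called lower with EC, at -0.84 (adjusted p = 0.0412) and -0.75 (adjusted p = 0.0287), while the epithelial share in the remaining EC libraries was 40.6 to 61.2%. With IPFc, Ccl2 ranged from 242 to 467 CPM and Ccl7 from 51.4 to 83.5 CPM (both adjusted p = 1). IPFc stood above TGF-β by 1.61 ± 0.32 for Ccl2 (adjusted p = 0.00156) and by 1.93 ± 0.38 for Ccl7 (adjusted p = 0.00125), in 4 of 4 mice and under all 12 alternatives.

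Epithelial libraries held Ccl2 at 10.6, 10.4, 12.6 and 29.9 CPM with vehicle (mice 1 to 4), 31.4, 51.6, 17.8 and 36.0 CPM with IPFc, and 53.6, 40.0 and 33.2 CPM with TGF-β (mice 2, 3 and 4). IPFc overlapped with vehicle through the vehicle library of mouse 4, and TGF-β did not. The log2 fold changes were 1.07 ± 0.26 with IPFc (adjusted p = 0.02, higher in 4 of 4 mice) and 1.33 ± 0.28 with TGF-β (adjusted p = 0.000646, higher in 3 of 3). The IPFc call was kept in 6 of 12 alternatives and lost with DESeq2 (adjusted p = 0.0609), robust estimation (0.164), without mouse 1 (0.135) or mouse 2 (0.25), without the block (0.124) and after subtraction. EC stood at 27.6, 33.2, 15.4 and 24.5 CPM, 0.69 ± 0.26 (adjusted p = 0.184). It was called at 1.08 without mouse 4 (adjusted p = 0.00674) and at 0.68 without the filter on low counts (adjusted p = 1.95e-05). Subtraction of the fibroblast share left 1.23 ± 2.46 CPM with vehicle, 2.52 ± 4.16 with EC, 0.0508 ± 0.102 with IPFc and 12.1 ± 8.46 with TGF-β, where only TGF-β was called (adjusted p = 0.0497).

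Ccl7 in epithelial libraries was at 1.64, 1.44, 1.87 and 3.87 CPM with vehicle, 6.23, 9.31, 2.69 and 6.31 CPM with EC, and 8.22, 12.5, 4.72 and 7.84 CPM with IPFc. Only the IPFc group lay wholly above vehicle. The log2 fold changes were 1.41 ± 0.35 with EC (adjusted p = 0.0195) and 1.84 ± 0.34 with IPFc (adjusted p = 0.00253), higher in 4 of 4 mice each, and 1.59 ± 0.38 with TGF-β (adjusted p = 0.00174), higher in 2 of 3 mice. The EC call was also lost without mouse 1 (adjusted p = 0.151), without mouse 2 (0.192) and without the block (0.0656). None was called after subtraction, which left 0.169 ± 0.339 CPM with vehicle and 2.02 ± 1.98, 0.542 ± 0.706 and 3.04 ± 2.67 CPM with EC, IPFc and TGF-β.

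Cxcl16 was steady within the epithelial groups, so that small differences passed the test. Its levels were 127, 140.4, 141 and 124 CPM with vehicle, 156, 159, 162 and 146 CPM with EC, 107, 101, 121 and 107 CPM with IPFc, and 130.1, 150.0 and 146 CPM with TGF-β. All EC libraries lay above and all IPFc libraries below the vehicle libraries. IPFc was lower than vehicle by 0.29 (SE 0.08, adjusted p = 0.0442) in 4 of 4 mice, a call lost in 6 of 12 alternatives, among them without mouse 1, 2 or 3 (adjusted p = 0.212, 0.426 and 0.104). EC was higher by 0.26 ± 0.08 in 4 of 4 mice (adjusted p = 0.0721), and DESeq2 called it (0.26, adjusted p = 0.0177). The direct comparison was firmer, with IPFc lower than EC by 0.55 (SE 0.08, adjusted p = 0.00012) in 4 of 4 mice and under all 12 alternatives. TGF-β libraries did not differ from vehicle by the test (-0.02 ± 0.09, adjusted p = 0.877). After subtraction of the larger fibroblast share they were called higher (0.38, adjusted p = 0.00425).

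In fibroblast libraries Cxcl16 was at 28.2, 28.0 and 43.5 CPM with vehicle, 68.1, 56.3, 62.5 and 82.1 CPM with EC, 14.5, 19.7, 21.5 and 42.4 CPM with IPFc, and 4.79, 5.50, 4.66 and 7.44 CPM with TGF-β. EC lay above and TGF-β below the vehicle libraries without overlap. The log2 fold changes were 1.17 ± 0.18 with EC (adjusted p = 0.00112) and -2.39 ± 0.19 with TGF-β (adjusted p = 7.76e-08). The share of epithelial RNA in these libraries followed the same order, 46.9% with EC, 22.9% with vehicle, 21.0% with IPFc and 2.25% with TGF-β. After subtraction the means were 0 CPM with EC, 4.88 ± 2.33 with vehicle, 3.16 ± 5.63 with IPFc and 2.49 ± 0.80 with TGF-β, and no difference from vehicle was called.

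Ccl11, the eosinophil chemokine known as eotaxin, was barely read in vehicle and EC cultures and was read in fibroblast libraries with IPFc and TGF-β. The fibroblast vehicle libraries held 2 reads in all and the EC libraries 2, whereas IPFc libraries held 14, 9, 14 and 7 reads (1.03, 0.674, 0.835 and 0.543 CPM) and TGF-β libraries 18, 10, 7 and 20 reads (1.46, 0.687, 0.429 and 1.20 CPM). Every IPFc and TGF-β library lay above every vehicle and EC library. The ratio of summed counts to vehicle was 16.0 for IPFc (95% exact interval 4.18 to 136) and 18.9 for TGF-β (5.00 to 160), which covers counting error only. The test called TGF-β (adjusted p = 0.00189, and 0.0645 after subtraction) and not IPFc (adjusted p = 0.0757), while IPFc was called as well by DESeq2 (adjusted p = 0.0424), without the filter on low counts (0.0116) and where only the 2 groups were fitted (0.0325). IPFc against EC was called (adjusted p = 0.00534), a call lost without mouse 3 (0.0555), without mouse 4 (0.0502), where only the 2 groups were fitted (0.0519) and after subtraction (0.312), which left 0.898 ± 0.194 CPM with IPFc and 0.0831 ± 0.166 with EC. IPFc and TGF-β did not differ by the test (-0.27 ± 0.54, adjusted p = 0.827). In epithelial libraries 19 of 22 reads fell in the IPFc group, 18 of them in mice 2 and 3, and that group was not called against vehicle, which had no read (adjusted p = 0.0935).

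Ccl17, the CCR4 ligand known as TARC, was read most with TGF-β in both fractions. Fibroblast libraries held 1, 1 and 4 reads with vehicle (0.0787, 0.0774 and 0.256 CPM) and 10, 13, 22 and 13 reads with TGF-β (0.812, 0.893, 1.35 and 0.780 CPM). The groups did not overlap, and the log2 fold change was 2.68 ± 0.77 (adjusted p = 0.0202), lost after subtraction (adjusted p = 0.213), without mouse 1 and without mouse 3. Epithelial TGF-β libraries held 9, 3 and 6 reads in mice 2, 3 and 4, against 4 reads over the 4 vehicle libraries, a log2 fold change of 2.89 ± 1.13 (adjusted p = 0.0494) that was kept in 2 of 10 alternatives. Epithelial EC libraries held none and IPFc libraries 1. IL-4 and IL-13, both in IPFc, are textbook inducers of Ccl11 and Ccl17 in other settings, and with IPFc Ccl17 was not called in fibroblast (0.193 ± 0.151 CPM, adjusted p = 1) or epithelial libraries (1 read in all, adjusted p = 0.755).

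Ccl5 (RANTES) and Cxcl14, an epithelial chemokine in other tissues, were barely read. Fibroblast groups held 14 to 29 Ccl5 reads each, from 0 to 0.833 CPM per library, and epithelial groups 3 to 6, from 0 to 0.346 CPM. Against vehicle, edgeR called 0 of 3 treatments for Ccl5 in either fraction (adjusted p from 0.69 to 1), with no unadjusted p under 0.05 and no call by DESeq2. Cxcl14 had 10 reads over the 15 epithelial and 3 over the 15 fibroblast libraries, at most 0.139 CPM.

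**Figure D5:**
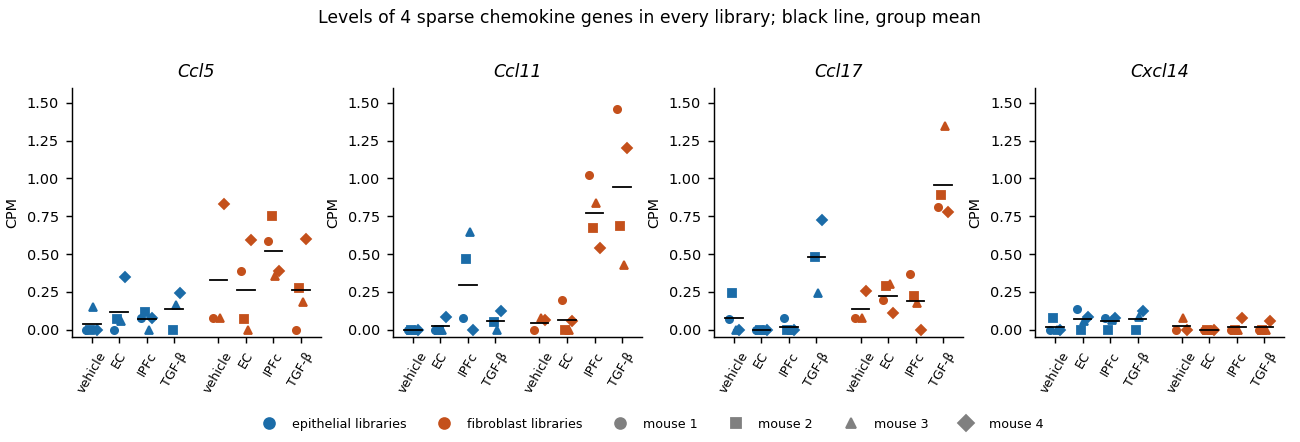
CPM (linear axis) of the 4 sparse genes in each of the 30 libraries by fraction, treatment and mouse, with the group mean as a black line. Ccl11 stands above the vehicle and EC libraries in fibroblast IPFc and TGF-β libraries, Ccl17 is highest with TGF-β, Ccl5 overlaps between all fibroblast groups, and Cxcl14 stays at or under 0.139 CPM.

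Whether the fractions differed in their response was tested as an interaction over the 30 libraries, epithelial response minus fibroblast response. The mouse within fraction was the block, so the pairing of the fractions of a culture was not used. With the culture as the block instead, 6 called differences were kept and 1 was lost. For EC, 1 of 9 genes was called (4.59% of all genes), with a lower value in epithelial libraries (3.33%). It was Cxcl16 at -0.91 ± 0.19 (adjusted p = 0.00528). That call was lost with the culture as the block (adjusted p = 0.482), without mouse 3 (0.107) and without the block, and its sign turned after subtraction. The difference in the EC response of Ccl20 was -0.71 ± 0.51 (adjusted p = 0.54) and that of Cxcl12 was 0.78 ± 0.26 (adjusted p = 0.0957). For IPFc, edgeR called 0 of 9 (0.229% of all genes, 0.185% higher and 0.0436% lower), DESeq2 called 0, and 2 had an unadjusted p under 0.05.

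For TGF-β, 6 of 9 genes were called (27.5% of all genes), all with a higher value in epithelial libraries (20.2%). They were Ccl2 at 2.83 ± 0.53, Ccl7 at 3.11 ± 0.65, Ccl8 at 2.02 ± 0.64, Ccl20 at 5.56 ± 0.97, Cxcl12 at 2.74 ± 0.27 and Cxcl16 at 2.39 ± 0.21 (adjusted p from 2.93e-09 to 0.019). From vehicle to TGF-β the fibroblast share in epithelial libraries went from 5.97 to 28.7% and the epithelial share in fibroblast libraries from 22.9 to 2.25%. After subtraction Ccl2 (adjusted p = 0.0194), Ccl7 (0.0294), Ccl20 (0.042) and Cxcl12 (0.0401) stayed called, and Cxcl16 (0.51 on the log2 scale) and Ccl8 (adjusted p = 0.36) did not. These tests leave out the error of the share. Ccl8 was also lost without mouse 1 (adjusted p = 0.0597), without mouse 3 (0.205) and without the block (0.0649).

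The receptors of these chemokines were sparse in both fractions, at this depth. Of 13 receptor genes, 4 in epithelial and 5 in fibroblast libraries passed the filter on low counts. Ccr2, the main CCL2 receptor, reached at most 0.975 CPM in any library, Ccr6 at most 0.0774 CPM and Cxcr6 at most 0.618 CPM, and Ackr1 and Ccr8 were without a read. Ccr1, a receptor of CCL5 and CCL7, was read in fibroblast libraries at 1.97 ± 1.05 CPM with vehicle (n = 3), 3.01 ± 0.83 with EC, 6.75 ± 1.64 with IPFc and 8.22 ± 2.20 with TGF-β (n = 4 each). It rose with IPFc (1.76 ± 0.29, adjusted p = 0.0079) and with TGF-β (2.13 ± 0.29, adjusted p = 3.5e-05), and was the receptor called with IPFc. After subtraction the TGF-β call stayed (adjusted p = 0.0167) and the IPFc call did not (0.303).

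Cxcr4, the signalling receptor of CXCL12, rose with TGF-β in fibroblast libraries from 7.31 ± 2.30 to 20.3 ± 11.2 CPM (1.64 ± 0.22, adjusted p = 2.59e-05, and 0.012 after subtraction). In epithelial libraries with TGF-β, Cxcr4 rose from 1.75 ± 0.55 to 8.80 ± 1.89 CPM (adjusted p = 2.05e-05), Ackr3 from 1.10 ± 0.14 to 5.55 ± 0.62 CPM (adjusted p = 0.000123) and Ccr1 from 0.0789 ± 0.0575 to 2.69 ± 1.32 CPM (adjusted p = 0.000309), where the fibroblast share was 28.7% beside 5.97% with vehicle. After subtraction Ackr3 stayed called (adjusted p = 0.0016), and Cxcr4 (0.693) and Ccr1 (0.215) did not. Counted over the list, TGF-β called 3 of 4 tested receptors higher and 0 lower in epithelial libraries (21.0 and 20.1% of all genes) and 2 of 5 higher and 0 lower in fibroblast libraries (6.39 and 12.8%). With EC, 0 of the tested receptors were called in either fraction by edgeR, 0 by DESeq2 and 0 had an unadjusted p under 0.05. With IPFc, 0 were called in epithelial libraries by either tool, and 0 had an unadjusted p under 0.05.

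Of 20 other chemokine genes, 7 were tested in epithelial and 8 in fibroblast libraries. With EC, Ccl28, a mucosal epithelial chemokine, rose in epithelial libraries from 0.265 ± 0.168 to 2.38 ± 1.08 CPM (3.22 ± 0.55, adjusted p = 0.000822), the 1 gene of the list called there, also after subtraction (adjusted p = 0.0146). In fibroblast libraries EC called 3 of 8 lower (2.84% of all genes) and 0 higher (4.28%). They were Cx3cl1, the transmembrane chemokine fractalkine (215 ± 13.5 to 110.0 ± 21.3 CPM, -0.95 ± 0.12, adjusted p = 0.000266), Ccl9 (-1.26 ± 0.26, adjusted p = 0.00795) and Cxcl10 (-1.54 ± 0.40, adjusted p = 0.0294), and the epithelial share stood at 46.9% in those libraries, beside 22.9% with vehicle. None of the 3 was called after subtraction (adjusted p = 0.168 for Cx3cl1, 0.209 for Ccl9 and 0.367 for Cxcl10). With IPFc, 0 were called in either fraction by edgeR or DESeq2, and 2 in epithelial and 1 in fibroblast libraries had an unadjusted p under 0.05. TGF-β called Ccl9 (1.47 ± 0.33) and Cx3cl1 (1.06 ± 0.13) higher in epithelial libraries and Cxcl10 lower in fibroblast libraries (-2.51 ± 0.41), that is 2 of 7 higher (21.0%) and 1 of 8 lower (12.8%). Epithelial Cx3cl1 went from 36.3 ± 2.80 to 77.3 ± 3.04 CPM while fibroblast TGF-β libraries held 160 ± 9.26 CPM and the fibroblast share went from 5.97 to 28.7%, and subtraction left 25.1 ± 1.97 and 43.0 ± 4.77 CPM (0.70 ± 0.17, adjusted p = 0.00711). Epithelial Ccl9 (adjusted p = 0.0136) and fibroblast Cxcl10 (0.0155) also stayed called after subtraction. Ccl12, between Ccl11 and Ccl8 in the cluster, had a group mean of at most 0.0708 CPM.

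Enzymes that cut or shed chemokines were measured throughout, and all 10 of the list were tested. Dpp4, a protease that trims the amino end of CXCL12 and several CC chemokines, fell with EC in epithelial libraries from 20.9 ± 4.67 to 9.53 ± 2.30 CPM (-1.12 ± 0.22, adjusted p = 0.00362, and 0.043 after subtraction). It fell with TGF-β in fibroblast libraries from 13.4 ± 2.89 to 0.694 ± 0.676 CPM (-4.62 ± 0.38, adjusted p = 8.99e-08, and 0.0113 after subtraction). Mmp2, a gelatinase that also cuts CXCL12 and CCL7, was lower in fibroblast libraries with EC (569 ± 28.1 to 344 ± 60.9 CPM, -0.70 ± 0.12, adjusted p = 0.00252) and higher with TGF-β (961 ± 43.9 CPM, 0.85 ± 0.12, adjusted p = 6.2e-05). The epithelial share in those libraries was 22.9% with vehicle, 46.9% with EC and 2.25% with TGF-β, and subtraction left 729 ± 67.4, 610 ± 123 and 978 ± 53.2 CPM, with neither difference called (adjusted p = 0.669 and 0.0651). Ctsl, a lysosomal cysteine protease, was the enzyme called higher with EC in epithelial libraries (0.49 ± 0.13, adjusted p = 0.0406), which subtraction took away (-0.18, adjusted p = 0.977). With TGF-β, 6 of 10 were higher (21.0% of all genes) and 0 lower (20.1%) in epithelial libraries, and 1 was higher (6.39%) and 5 lower (12.8%) in fibroblast libraries. Mmp2, Ctsl and Adam8, a sheddase, had the largest changes in epithelial libraries, at 2.83 ± 0.20, 1.76 ± 0.15 and 1.36 ± 0.18 on the log2 scale. After subtraction epithelial Mmp2 stood at 0 CPM with TGF-β, Ctsl was not called (adjusted p = 0.291) and Adam8 was (9.31e-05). Fibroblast Mmp9, another gelatinase (-1.09 ± 0.15), and Adam8 (-1.01 ± 0.16) fell with TGF-β and stayed called after subtraction (adjusted p = 0.00197 and 0.00741). With IPFc, edgeR called 0 in either fraction and DESeq2 called 1 in each, and 6 in epithelial and 2 in fibroblast libraries had an unadjusted p under 0.05.

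Receptors for the factors that were added were counted as well. In epithelial libraries 16 of 18 were tested, and EC called 2 higher (1.96% of all genes) and 0 lower (2.44%), IPFc 4 higher (2.57%) and 1 lower (1.53%), and TGF-β 7 higher (21.0%) and 3 lower (20.1%). Il13ra2, a decoy receptor for IL-13, rose from 1.23 ± 0.60 to 15.6 ± 4.59 CPM with EC (3.72 ± 0.29, adjusted p = 2.76e-08) and to 3.97 ± 1.46 CPM with IPFc (1.73 ± 0.31, adjusted p = 0.00173). After subtraction the EC call stayed (adjusted p = 0.000254) and the IPFc call did not (0.235). Il1rl1, the IL-33 receptor, rose to 7.82 ± 1.26 CPM with IPFc and 44.6 ± 2.80 with TGF-β from 2.28 ± 0.79 with vehicle. Fibroblast TGF-β libraries held Il1rl1 at 98.7 ± 18.4 CPM, and the fibroblast share in epithelial libraries was 5.97% with vehicle, 11.3% with IPFc and 28.7% with TGF-β. Subtraction left 0.0423 ± 0.0847, 1.71 ± 2.02 and 21.3 ± 9.66 CPM in that order, with TGF-β still called (adjusted p = 0.000535) and IPFc not (0.153). Crlf2, the TSLP receptor, and Tgfbr3, a TGF-β co-receptor, were higher with TGF-β in epithelial libraries (1.26 ± 0.25 and 1.05 ± 0.20). After subtraction Crlf2 was lower, at 0 CPM in every TGF-β library beside 2.28 ± 2.01 with vehicle (adjusted p = 0.00484), and Tgfbr3 was not called (0.0696).

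In fibroblast libraries 15 receptors of added factors were tested, and EC called 2 higher (4.28%) and 2 lower (2.84%) and TGF-β 1 higher (6.39%) and 5 lower (12.8%). With IPFc, edgeR called 0 there, DESeq2 called 3 and 4 had an unadjusted p under 0.05. Il1rl1 was 46.1 ± 10.2 CPM with vehicle, fell to 22.8 ± 2.99 with EC (adjusted p = 0.000548) and rose to 98.7 ± 18.4 with TGF-β (adjusted p = 8.32e-06). Tnfrsf1b, a TNF receptor, rose from 65.4 ± 18.8 to 89.7 ± 4.21 CPM with EC (adjusted p = 0.0326) and fell to 26.0 ± 3.12 with TGF-β (adjusted p = 2.22e-05). Il13ra2 likewise rose with EC (1.35 ± 0.26, adjusted p = 0.00448) and fell with TGF-β (-1.91 ± 0.30, adjusted p = 0.000149). Tgfbr3 fell with EC (-0.45 ± 0.13, adjusted p = 0.0487) and with TGF-β (-1.56 ± 0.13, adjusted p = 1.27e-07). The epithelial share was 46.9% with EC and 2.25% with TGF-β, beside 22.9% with vehicle. After subtraction none of these 4 genes was called with EC (adjusted p from 0.437 to 0.995, with Il13ra2 turned to -0.34 ± 0.87), and with TGF-β Il1rl1 (0.0342), Tnfrsf1b (0.0164) and Tgfbr3 (5.87e-05) stayed called and Il13ra2 (0.19) did not.

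For each of the 6 abundant genes, the 2 genes most like it over the 15 libraries of its higher fraction were sought by Pearson's r of log2 CPM. Ccl2 and Ccl7 were most like each other (r = 0.949) among 12981 genes in fibroblast libraries, followed by Bdkrb1, the bradykinin B1 receptor, for Ccl2 (0.948) and Phlda1 for Ccl7 (0.897). Ccl8 was nearest to Gsta2 (0.932) and Csf2rb (0.866), and Cxcl12 to Ak5 (0.958) and Ccdc80 (0.943). In epithelial libraries, among 12874 genes, Ccl20 was nearest to Saa3, an acute phase protein (0.906), and Vnn1 (0.888), and Cxcl16 to Slc9a2 (0.897) and Stra6 (0.866). For Ccl20 Spearman's rho was lower, 0.649 with Saa3 and 0.725 with Vnn1. The libraries share treatments, mice and the shares of the other fraction, and the values describe likeness in these libraries.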

How the data were processed

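RNA of re-sorted epithelial (Epcam+) and fibroblast fractions was sequenced with a strand-keeping kit. The authors deposited 1 table per library of raw counts per Ensembl gene, made after trimming with Trimmomatic 0.30 (submitters' processing notes, which also list DESeq2 1.34.0). The aligner and counter are not given in the sources used here, and the genome is given as GRCm39 in the labels and as GRCm38 patch 6 in the methods.

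Counts were tested with edgeR 4.0.16 (quasi-likelihood test, TMM, R 4.3.3) after a filter at a mean raw count of 1 (18024 epithelial, 18048 fibroblast and 18364 joint genes), with Benjamini-Hochberg adjustment over all of them and a threshold of 0.05. The SE beside edgeR's log2 fold changes was derived as the absolute log2 fold change divided by the square root of the test's F statistic. Within a fraction, 15 libraries were fitted with the 4 treatments and the mouse as a block. Fractions were compared over 30 libraries with the culture as a block, and responses of the fractions with the mouse within fraction as a block. The block follows the mouse numbers in the labels: deviations from group means correlated at 0.147 (epithelial) and 0.176 (fibroblast) on average for the same mouse, and at -0.0484 and -0.0581 for different mice. Fibroblast replicates are cultures of 1 line, so their p-values measure the spread between cultures.

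The share of the other fraction was the median, over marker genes, of a library's CPM relative to the partner library of its culture (to the treatment mean where the partner is not analysed here), and subtraction removed the share times the partner's counts. Markers at under 50 CPM in the partner were left out. Alternatives were DESeq2 1.42.0, its size factors, no filter, edgeR's own expression filter, robust estimation, each mouse left out, no block, 2 groups only, subtraction and, for responses, the culture as a block. The main edgeR fits were tested on simulated counts with known changes, for an EC comparison in each model. The simulation had a fixed dispersion and no mouse or culture effect, and it changed only genes with a mean count of at least 50. It therefore does not cover genes with few reads. The shares, the subtraction, the alternatives and the search for like genes were not tested in this way. Totals of 5113828 to 20317181 reads set the precision, and intervals cover counting error only.

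The 10 genes are all described. Of other genes, the text names up to 4 called genes of each list in each fraction, those with the largest absolute change against vehicle, genes on which a level or absence turned (Ccr2, Ccr6, Cxcr6, Ackr1, Ccr8 and Ccl12), and the 2 genes most like each abundant member by Pearson's r. Genes and lists (receptors, other chemokines, processing enzymes, receptors of the added factors, markers) were chosen with earlier results of these data known. Gene positions are from GENCODE (GRCm39), and promoter windows from RefSeq (GRCm38.p6), which matched 5 of 10 genes.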

Additional observations from a re-analysis of the deposited data

Results flagged for a closer look

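The response to TGF-β differed between the fractions for 6 genes by the test of the difference, epithelial minus fibroblast on the log2 scale: 2.83 for Ccl2, 3.11 for Ccl7, 2.02 for Ccl8, 5.56 for Ccl20, 2.74 for Cxcl12 and 2.39 for Cxcl16. The response to EC differed for Cxcl16, by -0.91. Over the same libraries the mean fibroblast share in epithelial libraries was 5.97% with vehicle and 28.7% with TGF-β, and the mean epithelial share in fibroblast libraries was 22.9% with vehicle, 46.9% with EC and 2.25% with TGF-β.

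In 4 of 54 groups of 4 libraries, 1 library stood far from the others. Chance gives about 1 in 20 for continuous values, a rate that does not hold for groups with reads in only 1 library. Epithelial Ccl2 with vehicle was 29.9 CPM in mouse 4, beside 10.4 to 12.6 CPM in the other mice. The other flagged values rested on 1 to 3 reads: epithelial Ccl5 with vehicle at 0.148 CPM in mouse 3, Ccl11 with EC at 0.0865 CPM in mouse 4 and Ccl17 with IPFc at 0.0798 CPM in mouse 1, where the other libraries of the group held no read.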

How the results depend on the processing

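The count of members called is given for each alternative that moved it by over 1.5 times. Without the replicate block it went from 2 to 1 for epithelial EC, 4 to 1 for epithelial IPFc, 2 to 0 for fibroblast IPFc and 1 to 0 for the EC response difference, which also went to 0 with the culture as the replicate block. Over all called values, the fit without the pairing by mouse kept 61 and lost 14, among them Ccl8 (adjusted p = 0.195) and Cxcl12 (0.0828) in fibroblast IPFc and Cxcl16 (0.0677) in fibroblast EC. Without the filter on low counts the counts were 4 for epithelial EC, 4 for fibroblast IPFc, 4 for the EC and 3 for the IPFc response difference. With only the 2 groups compared they were 4 for fibroblast IPFc and 3 for fibroblast IPFc against EC. After subtraction of the other fraction's share they were 1 for epithelial EC, 0 for epithelial IPFc, 3 for epithelial TGF-β, 1 for fibroblast EC, 0 for fibroblast IPFc, 1 for fibroblast TGF-β, 0 for fibroblast IPFc against EC, 4 for fibroblast IPFc against TGF-β and 3 between fractions with TGF-β. Signs turned under subtraction for Ccl2 in epithelial IPFc (-3.12), for Cxcl16 in fibroblast EC (-8.81), IPFc against EC (7.33), IPFc against TGF-β (-1.31) and the EC response difference (9.08), and for Ccl8 in the TGF-β response difference (-3.60). After subtraction fibroblast Cxcl16 with EC and epithelial Ccl8 with TGF-β were at 0 CPM in every library, and the cause of the other turns was not tested.

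Leaving out 1 mouse at a time gave 1 to 3 calls for epithelial EC, 2 to 4 for epithelial IPFc, 4 to 5 for epithelial TGF-β, 2 to 4 for epithelial IPFc against EC, 1 to 2 for epithelial IPFc against TGF-β, 2 to 5 for fibroblast EC, 0 to 3 for fibroblast IPFc, 4 to 6 for fibroblast TGF-β, 3 to 7 for fibroblast IPFc against EC and 0 to 2 for the EC response difference. Fibroblast IPFc had 0 calls without mouse 3 and without mouse 4. The fit without mouse 3 is also the one in which the label suffix R is constant within a mouse. DESeq2 kept 72 called values and lost 2. Ccl20 in epithelial EC, Cxcl12 in epithelial TGF-β and in fibroblast EC, and Ccl20 and Cxcl16 in epithelial IPFc against EC were called in all 12 alternatives. Ccl5, Ccl11, Ccl17 and Cxcl14 rest on few reads, and the smallest change detectable in them was not computed. Against vehicle, edgeR left large differences uncalled. Ccl11 with IPFc was at 5.09 on the log2 scale in epithelial libraries (adjusted p = 0.0935) and 3.92 in fibroblast libraries (0.0757). A smaller one was called, Ccl17 with TGF-β in fibroblast libraries at 2.68 (adjusted p = 0.0202). A missing call in these genes therefore does not show that a change was absent.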
